A study of Mus musculus with 6 samples.

Results

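Cytoplasmic ribosomal protein genes encode the proteins of the large and the small subunit of the ribosome that translates nuclear messages. They were taken from the deposited expression table as the protein_coding genes whose name starts with Rpl or Rps followed directly by a digit, plus Rplp0, Rplp1, Rplp2 and Rpsa, without the Rps6k kinases and without names containing -ps. This rule found 87 of the 38293 genes in the table, 52 of them with large subunit names and 35 with small subunit names, on 19 chromosomes. Of these, 83 reached an RPKM (reads per kilobase of gene, scaled for sequencing depth) of at least 0.5 in at least 2 tumors and were tested among 12751 genes. Rpl10l, Rpl39l, Rpl3l and Rps4y2 did not. The rule also takes Rps19bp1, which encodes a binding partner of the ribosomal protein Rps19 and is no ribosomal protein. It leaves out Fau and Gnb2l1, whose names hide a small subunit protein fused to a ubiquitin-like protein and a scaffold on the small subunit.

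The 6 tumors came from C57BL6 mice that all carried the Eμ-Myc transgene, in which the immunoglobulin heavy chain enhancer drives Myc in the B lineage. Of these, 4 were miR-146a+/+ (sufficient tumors 1 to 4) and 2 were miR-146a-/- (deficient tumors 1 and 2), lacking a microRNA that restrains NF-κB signaling. Sufficient tumors 1 and 2 were neck nodes of mice aged 18 and 16 weeks, sufficient tumors 3 and 4 were thymic tumors at 10 weeks, and deficient tumors 1 and 2 were thymic tumors at 11 and 10 weeks. All sufficient mice were labelled male and both deficient mice female, so genotype and labelled sex cannot be told apart, and miR-146a was absent from every cell of the deficient mice rather than from the tumor cells alone. Each tumor has 1 column although 2 technical replicates were made, so n counts tumors.

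The B cell markers were present in every tumor: all 8 genes of the list were at an RPKM of 0.5 or more in each, and their sum ran from 1349 to 2248 RPKM. Macrophage markers (7 of 7 detected in every tumor) summed to 25.6 to 63.1 RPKM in the sufficient and to 83.2 and 118 RPKM in the deficient tumors. Genotypes did not overlap for C1qa, C1qb, C1qc and Cd68, but did for Csf1r, Emr1 and Mrc1. Csf1r, for example, reached 5.41 RPKM in sufficient tumor 1, above both deficient values (3.95 and 5.26 RPKM). The paper lists C1qa among changed genes with binding sites of the transcription factor EGR1. Macrophage numbers were not measured. T and NK cell markers summed to 5.97 to 39.7 RPKM, erythroid markers to 20.5 to 302 RPKM, and fibroblast and endothelial markers to 12.9 to 32.04 RPKM. The microRNA's own entry, Mir146, is listed at 0 in all 6 tumors and cannot check the genotype. The Y-linked Ddx3y was at 24.6 RPKM in deficient tumor 2, near the 17.9 to 23.0 RPKM of the male tumors and against its label, and at 0.130 RPKM in deficient tumor 1. Deficient tumor 1 also stood apart by Xist, at 1240072 RPKM against 1585 to 2203 RPKM in the other 5.

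Ribosomal proteins are made in near-equal numbers, and their messages are among the most abundant of a growing cell. Many carry a run of pyrimidines beginning with a C at the very start of the message, through which the growth kinase mTOR adjusts their translation as a group. Myc is a known activator of ribosomal protein genes and of the nucleolar machinery that assembles ribosomes, and Eμ-Myc B cells are a classic setting in which loss of ribosomal protein dose slows tumor growth. Ribosomal proteins left over from faulty assembly, Rpl5 and Rpl11 above all, bind Mdm2 and stabilize p53.

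Start sites were read from RefSeq (assembly GRCm38.p6), which held a window around the start for 64 of the 87 genes. A C exactly at the annotated start followed by 4 further pyrimidines was found at 13 of these 64 (20.3%), against 3.01% of all 27025 genes with a window and 2.67% of the 17491 coding genes. With the run allowed to begin within 10 bases of the annotated start on either side, 39 members (60.9%) and 34.4% of all genes held it. These 8 windows are examples, from both subunits, of the 13 members with the run exactly at the annotated start. Each has 10 bases before the annotated start and 15 from it onward, 5′ to 3′ on the gene's own strand, with the pyrimidine run in capitals, and the last 15 bases begin the annotated transcript.
Rpl14, chr9:120571507-120571531, plus strand: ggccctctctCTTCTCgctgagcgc
Rpl15, chr14:18270972-18270996, minus strand: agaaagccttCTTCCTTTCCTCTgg
Rpl35, chr2:39005117-39005141, minus strand: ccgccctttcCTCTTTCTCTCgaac
Rpl38, chr11:114668570-114668594, plus strand: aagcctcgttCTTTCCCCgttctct
Rps6, chr4:86857353-86857377, minus strand: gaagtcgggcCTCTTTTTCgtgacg
Rps10, chr17:27635230-27635254, minus strand: gcgcacgcccCTTCCTTTCCagcct
Rps18, chr17:33955651-33955675, minus strand: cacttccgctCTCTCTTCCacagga
Rps27, chr3:90213634-90213658, minus strand: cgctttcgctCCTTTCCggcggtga

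The next 3 windows are shown as examples without a run at the annotated start. In Rpl22l1 the run begins 3 bases after the annotated start, and the windows of Rpl7l1 and Rps19bp1 hold no such run.
Rpl22l1, chr3:28805498-28805522, plus strand: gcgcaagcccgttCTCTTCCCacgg
Rpl7l1, chr17:46782642-46782666, minus strand: gctgcgcaagcgcagtagctgaagc
Rps19bp1, chr15:80264292-80264316, minus strand: cggaagtagctcgccgcgtgtgggc

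Other short motifs were searched on both strands from 250 bases before to 50 after the start. The Myc-binding E-box CACGTG was in 6 of the 64 members (9.38%) and in 8.09% of all genes. CCGGAAG, the core bound by ETS factors, was in 25 members (39.1%) and in 9.93% of all genes, and AAGATGGC, the core of the YY1 motif, was in 6 members (9.38%) and in 3.19%. Among the tested members with a window, the 36 with a run near the start had a median genotype difference of -0.34 (log2 fold change, deficient against sufficient) and the 25 without it -0.30, while their median ratio of sufficient tumor 3 to the median of the other 5 tumors was 1.70 and 1.34.

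The family was highest in sufficient tumor 3 and lowest in deficient tumor 2. The 87 genes summed to 109056, 95708, 169434 and 113013 RPKM in sufficient tumors 1 to 4 and to 108430 and 79389 RPKM in deficient tumors 1 and 2. As a share of all RPKM of protein_coding genes these sums were 23.5%, 20.4%, 30.5% and 23.0% in the sufficient and 23.3% and 18.6% in the deficient tumors. Deficient tumor 1 thus lay within the range of the sufficient tumors and deficient tumor 2 below it. As a share of all genes the values were 16.1%, 13.1%, 21.5%, 15.2%, 5.61% and 11.1% in the same order, and the 5.61% of deficient tumor 1 became 15.6% when Xist was left out of the total.

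The median over the 83 tested members was 938, 739, 1550 and 967 RPKM in sufficient tumors 1 to 4 and 970.5 and 602 RPKM in deficient tumors 1 and 2. Sufficient tumor 3 was the highest of the 6 tumors for 70 of the 83 members (84.3%), whereas it was the highest for 9.37% and the lowest for 39.7% of all genes tested. Deficient tumor 2 was the lowest for 64 members (77.1%), whereas it was the lowest for 13.3% and the highest for 35.6% of all genes tested. In the deposited values, the 2 tumors that set the range of the family therefore lay on the other side of the typical gene. After each tumor was scaled by the median ratio of its genes, sufficient tumor 3 was highest for 81 and deficient tumor 2 lowest for 72 of the 83. Over all genes tested these shares were then 22.1% and 22.7%. With this scaling the typical gene no longer lay on the other side. The median over all genes tested, each taken relative to its own median over the tumors, was -0.0024 in sufficient tumor 3 and 0 in deficient tumor 2. In bulk tumors, fewer cells of a type and less RNA per cell cannot be told apart.

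**Figure D1:**
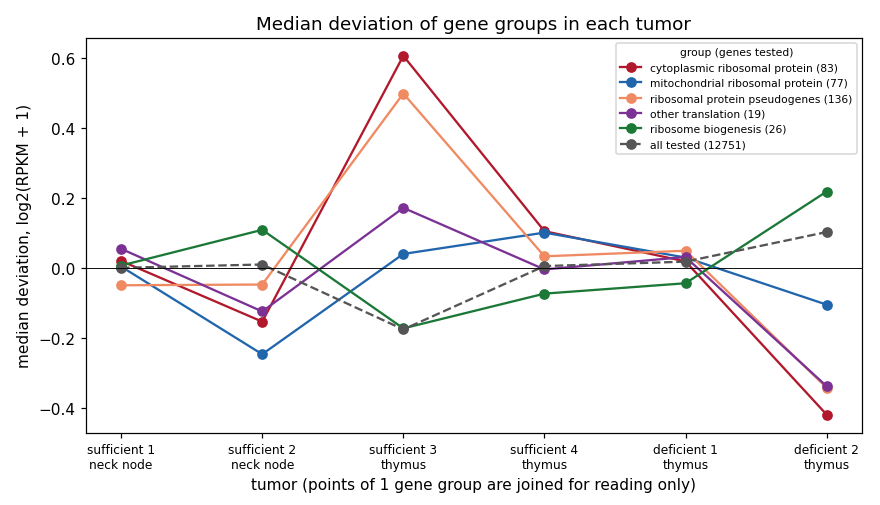
Median deviation of each gene group in each of the 6 tumors, where a gene's deviation is its log2(RPKM + 1) value less its own median over the tumors, and lines only join the points of 1 group. The cytoplasmic ribosomal protein genes stood at 0.61 in sufficient tumor 3 and -0.42 in deficient tumor 2, where all tested genes stood at -0.18 and 0.10.

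In the deposited values this order of tumors was not shared by all genes of protein synthesis. Median deviations in sufficient tumor 3 and deficient tumor 2 were 0.61 and -0.42 for the cytoplasmic ribosomal protein genes and 0.04 and -0.10 for the 77 mitochondrial ribosomal protein genes, which serve the separate ribosome of the mitochondrion. Elongation and initiation factors and other messages of this class (19 genes) stood at 0.17 and -0.34. The 26 ribosome biogenesis genes, the nucleolar factors that build ribosomes, went the other way at -0.17 and 0.22, close to the -0.18 and 0.10 of all genes tested. After median-ratio scaling the mitochondrial genes stood at 0.32 and -0.25, which were then also their highest and lowest values among the 6 tumors. With that scaling the cytoplasmic ribosomal protein genes stood at 0.90 and -0.58, and the other groups were not described. Myc itself was at 348, 472, 237 and 516 RPKM in sufficient tumors 1 to 4 and at 451 and 909 RPKM in deficient tumors 1 and 2, so the tumor with the highest Myc value was the one with the lowest ribosomal protein values and the tumor with the lowest Myc value was the one with the highest. These are 6 tumors, and the relation was not tested.

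The members varied together but not equally. The median SD of a member over the 6 tumors was 0.38 on the log2(RPKM + 1) scale. It was 0.25 once each tumor's values were taken relative to the family median. Over all genes tested the median SD was 0.31, and 0.29 relative to each tumor's median of all genes tested. All genes were thus centred on their own median and not on that of the family. The ratio of sufficient tumor 3 to the median of the other 5 tumors had a median of 1.54 over the members and ran from 0.893 to 3.25. It was above 1 for 82 of 83 and above 2 for 16, among them Rpl22l1, Rpl41, Rpl13a, Rpl39, Rpl36a, Rps3, Rps14 and Rps24. The same ratio for deficient tumor 2 had a median of 0.721, ran from 0.290 to 1.13 and was above 1 only for Rps19bp1 and Rps29. Large and small subunit members did not stand apart in this description, with median ratios of 1.54 and 1.55 in sufficient tumor 3 and 0.735 and 0.712 in deficient tumor 2.

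**Figure D2:**
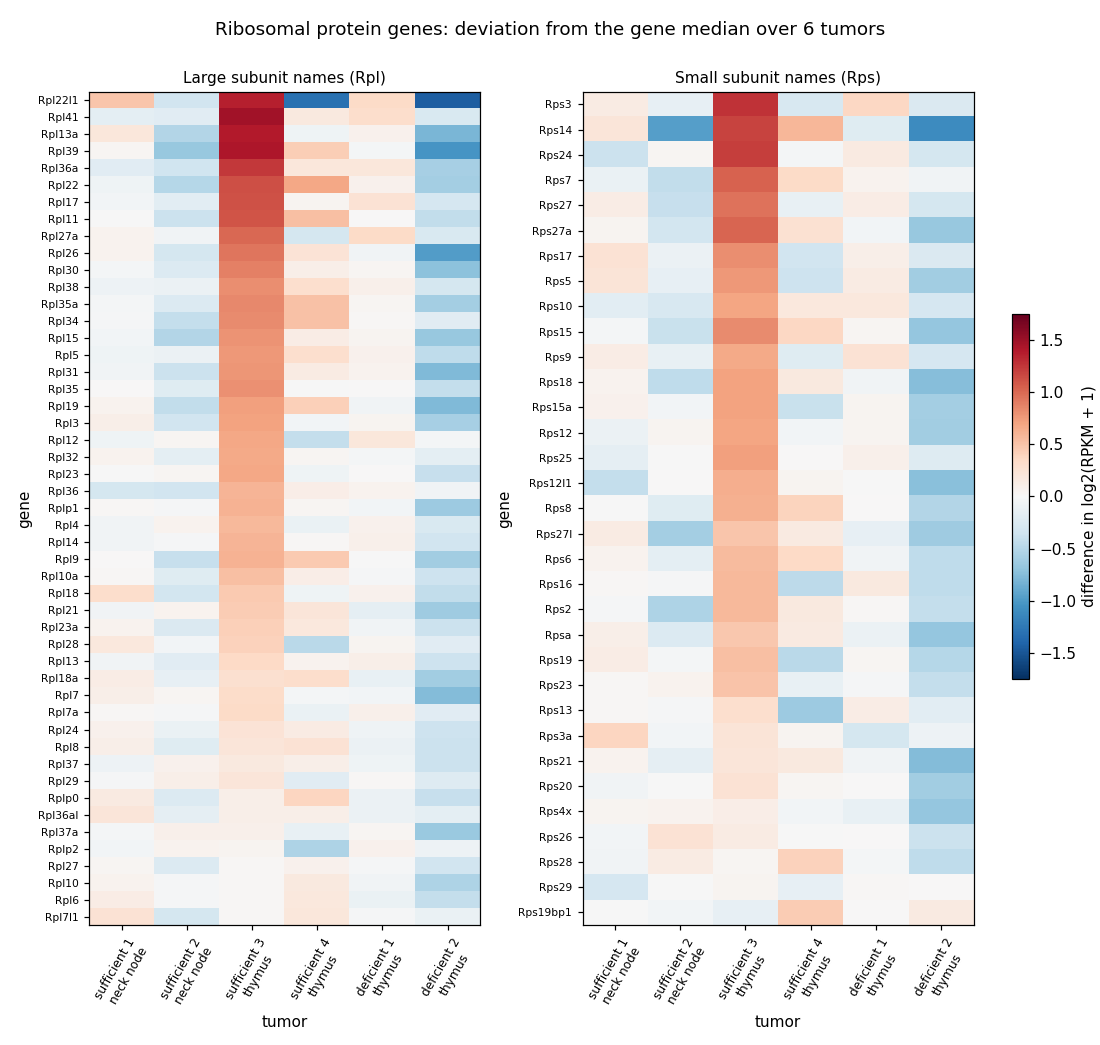
Deviation of the tested members (1 of 83 is not drawn) from their own medians over the 6 tumors, in log2(RPKM + 1), with large subunit names on the left, small subunit names on the right and genes ordered by the ratio of sufficient tumor 3 to the median of the other 5. The column of sufficient tumor 3 is the highest for 70 of the 83 genes and that of deficient tumor 2 the lowest for 64.

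Values of single genes are given for sufficient tumors 1 to 4 and then for deficient tumors 1 and 2. Rps29, a small subunit protein that binds zinc, had the smallest spread of the members over the 6 tumors. It was at 1288, 1562, 1630.4 and 1424 RPKM in the sufficient and 1592 and 1587 RPKM in the deficient tumors, an SD of 0.13 on the log2 scale, and its ratio to the median of the other 5 tumors was 1.04 in sufficient tumor 3 and 1.02 in deficient tumor 2. Rpl22l1, the paralog of Rpl22, had the largest spread, an SD of 1.09 and a 7.0-fold range, followed by Rps14, Rpl39 and Rpl13a. Rps14, the gene whose loss underlies the anemia of the 5q- syndrome, was at 2412, 1069.7, 4748 and 3123 RPKM in the sufficient and 1802 and 971 RPKM in the deficient tumors. Rpl13a, which also joins a complex that silences inflammatory messages, was at 2102, 1281, 4788 and 1739 RPKM and 1924 and 1050.2 RPKM. For both genes sufficient tumor 3 was highest and deficient tumor 2 lowest, and the groups overlapped because deficient tumor 1 exceeded sufficient tumor 2.

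The study's main comparison asks what the loss of miR-146a changes in Eμ-Myc tumors. No ribosomal protein gene passed an adjusted p of 0.05 by limma on log2(RPKM + 1) values, in either direction, and none had an unadjusted p under 0.05. Over all 12751 genes tested, 0.0627% passed the adjusted threshold (0.0549% higher, 0.00784% lower in deficient tumors) and 3.62% had an unadjusted p under 0.05. The lowest adjusted p among members was 0.893 by limma. In simulated tables of the same size and group numbers this test recovered 18.2% of genes changed 2-fold and 92.8% of those changed 4-fold, and the members' differences were all smaller than 2-fold.

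The members' log2 fold changes, deficient against sufficient, lay nearly all on the lower side. They ran from -0.91 to 0.11 with a median of -0.34, and 78 of 83 were below 0, whereas 32.4% of all genes tested were below 0 and the median of all was 0.13. Large subunit members had a median of -0.34 (47 of 49 below 0) and small subunit members one of -0.34 (31 of 34 below 0). The median over members stayed below 0 as deposited, with median-ratio scaling (-0.50, all 83 below 0, with all genes at -0.00) and with quantile normalization (-0.29), and was 0.06 only when each tumor was centred on these same genes, which removes the shift by construction.

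The shift was smaller without either of the 2 tumors at the ends of the range. The median over members was -0.18 without sufficient tumor 3 (all genes 0.07), -0.12 without deficient tumor 2 (all genes 0.07) and -0.53 without deficient tumor 1 (all genes 0.18). With the 4 thymic tumors only it was -0.49 (all genes 0.19). A site covariate gave the same values by construction, because both deficient tumors were thymic. No member passed the adjusted threshold in any of these fits, and those with an unadjusted p under 0.05 numbered 3 without deficient tumor 1 (8.82% of all genes in that fit), 4 without sufficient tumor 2 (5.50%), 8 with thymic tumors only (7.28%) and 12 with the covariate (8.97%). Macrophage marker sums were also highest in deficient tumor 2, and their part in the difference was not tested.

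**Figure D3:**
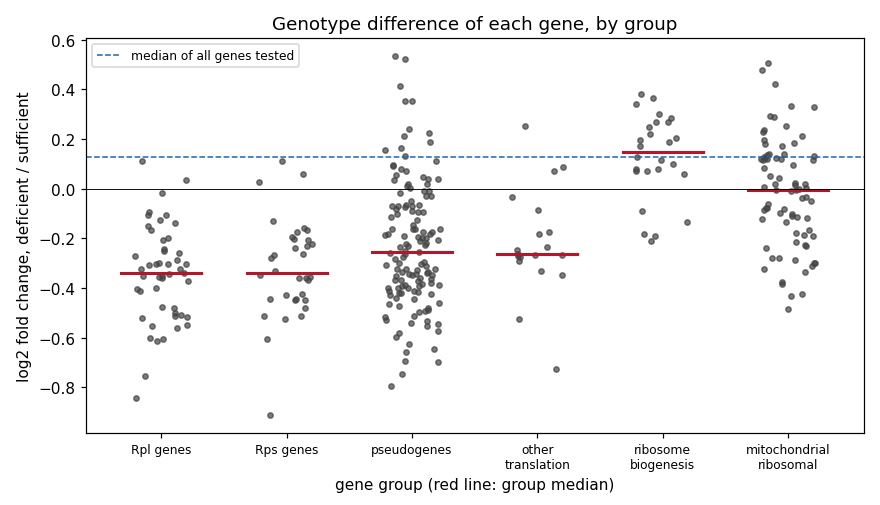
Log2 fold change of each tested gene, deficient against sufficient, by gene group, with red lines at group medians and a dashed line at the median of all genes tested (0.13). The medians were -0.34 for Rpl and for Rps genes, -0.26 for ribosomal protein pseudogenes and other translation genes, 0.15 for ribosome biogenesis genes and -0.01 for mitochondrial ribosomal protein genes. With each tumor centred on the ribosomal protein genes, their own median became 0.06.

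In 7 members both deficient tumors lay below all 4 sufficient tumors, namely Rpl10, Rpl21, Rpl6, Rpl7, Rplp1, Rps3a and Rps4x, and in 0 both lay above. Over all genes tested, 2.09% were lower and 9.15% higher without overlap, and the smallest two-sided p that an exact permutation test of 4 against 2 tumors can give is 0.133. With fewer tumors to overlap, the count of members below was 28 without sufficient tumor 2 (5.23% of all genes) and 65 without deficient tumor 1 (13.9% of all genes). A single member, 1 of 83, lay above without sufficient tumor 3, sufficient tumor 4 or deficient tumor 2, against 10.9%, 14.5% and 16.5% of all genes. Rpl21, a large subunit protein singled out here after its values were seen because its unadjusted p was the lowest among the members, was at 321, 349.6, 456 and 389.6 RPKM in the sufficient tumors (379 ± 58.6, mean ± SD, n = 4) and 301 and 218 RPKM in the deficient tumors (259 ± 58.5, SD, n = 2). Its log2 fold change was -0.55 (SE 0.25), with an adjusted p of 0.893 by limma and an exact permutation p of 0.133. Rps4x, the X-linked small subunit gene, was at 2369.6, 2384, 2487 and 2222 RPKM and 2094 and 1439 RPKM, so that the 4 sufficient tumors lay close together and deficient tumor 2 well below them.

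The largest downward values belonged to Rps14 (-0.91, SE 0.57), Rpl39 (-0.84, SE 0.55), Rpl26 (-0.76, SE 0.41), Rpl13a (-0.61, SE 0.53) and Rpl19 (-0.61, SE 0.41). Rpl39, an X-linked protein at the peptide exit tunnel, was at 1199.8, 739, 3130.4 and 1586 RPKM in the sufficient and 1144 and 570.1 RPKM in the deficient tumors. Rpl26, which also binds the p53 message, was at 1169, 903, 2143 and 1319 RPKM and 1066 and 567 RPKM. In both genes deficient tumor 1 lay among the sufficient tumors, and the exact permutation p was 0.267 for each. Rpl19, a large subunit protein, was at 2129, 1514, 3363 and 2742 RPKM and 1971 and 1194 RPKM, with the same order of tumors at both ends.

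The members above 0 were Rps29 (0.11, SE 0.27), Rplp2 (0.11, SE 0.26), Rps13 (0.06, SE 0.30), Rpl12 (0.04, SE 0.33) and Rps19bp1 (0.03, SE 0.22), each within its standard error and each below 0 with median-ratio scaling. Rplp2, a protein of the stalk that recruits elongation factors, was at 559, 599, 593 and 395 RPKM in the sufficient and 607 and 539 RPKM in the deficient tumors, with sufficient tumor 4 alone standing low. Rps13 was at 555, 542, 674 and 352 RPKM and 601 and 483 RPKM, and Rpl12, which sits at the base of the stalk, was at 582, 628, 979 and 459 RPKM and 708 and 602 RPKM. Both shared with Rplp2 the low value of sufficient tumor 4. Rps19bp1, at 32.3, 31.4, 29.3 and 44.5 RPKM and 32.8 and 36.5 RPKM, was highest in sufficient tumor 4 and lowest in sufficient tumor 3, unlike the ribosomal proteins it is named with.

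No mitochondrial ribosomal protein, other translation or ribosome biogenesis gene passed the threshold by limma either, and none had an unadjusted p under 0.05. Of 77 mitochondrial ribosomal protein genes 37 were above and 40 below 0, of 19 other translation genes 3 and 16, and of 26 ribosome biogenesis genes 21 and 5. Fau, made as a fusion of a ubiquitin-like protein with a small subunit protein, was at 862, 692, 1304 and 1199 RPKM and 844 and 551 RPKM, with both deficient tumors toward the low end but with deficient tumor 1 above sufficient tumor 2. Eef1a1, the elongation factor that brings aminoacyl-tRNA to the ribosome, was at 6519, 5621, 9684 and 6034 RPKM and 6324 and 4888 RPKM and followed the same order of tumors at both ends as the family.

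Tumor site was examined within the sufficient genotype, 2 neck node against 2 thymic tumors. No member passed an adjusted p of 0.05 by limma, where 0.155% of 12255 genes tested did (0.139% higher and 0.0163% lower in neck nodes), and 8 members had an unadjusted p under 0.05 (background 7.87%), namely Rpl11, Rpl22, Rpl34, Rpl35a, Rpl36a, Rpl39, Rpl9 and Rps14. The count of 8 became 0 without sufficient tumor 2 (5.57% of all genes), 2 without sufficient tumor 3 (8.79%) and 22 without sufficient tumor 4 (11.4%). The lowest adjusted p was 0.555, for Rpl22, whose log2 difference, neck node minus thymus, was -1.19 (SE 0.32). Both neck node tumors were below both thymic tumors for 42 members (background 12.6%) and above them for 0 (background 27.9%). Without sufficient tumor 3 these counts became 48 and 22, against 36.1% of all genes below and 36.4% above, and without sufficient tumor 4 they became 72 and 1, against 20.8% below and 56.5% above. The median log2 difference was -0.35 over members and 0.10 over all genes, with 73 of 83 members below 0 against 39.0% of all genes, and the median moved to -0.16 without sufficient tumor 3, to -0.69 without sufficient tumor 4, and to 0.21 with each tumor centred on these genes. With quantile normalization the median was -0.17 (all genes 0.014), 58 members were below 0, and 25 lay below and 6 above without overlap (18.7% and 21.2% of all genes). With median-ratio scaling the median was -0.49 (all genes -0.0052), 81 members were below 0, and 48 lay below and 0 above without overlap (20% and 20.3% of all genes).

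Neck node and thymic tumors differed in other ways at the same time. Neutrophil markers (5 of 6 at an RPKM of 0.5 or more in every tumor) summed to 1577 and 1607 RPKM in the neck node tumors and to 199 to 231 RPKM in the sufficient thymic tumors, and salivary gland markers, of which Prol1 was at 0 throughout, to 64.7 and 65.9 RPKM against 0.310 and 0.539 RPKM. The neck node mice were also 16 and 18 weeks old and the thymic ones 10 weeks, so site and age cannot be told apart, and the part of the other cells in the site difference was not tested.

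Of the tested members, Rpl22l1 departed most from the family, with an SD of 0.79 over the tumors after each was centred on the family median. Rpl22 (ENSMUSG00000028936, chr4:152325742-152334071) encodes a large subunit protein that acts as a tumor suppressor in lymphoid cells and is known to restrain its paralog Rpl22l1 (ENSMUSG00000039221, chr3:28805436-28807424). Rpl22 was at 371, 277, 859 and 627 RPKM in the sufficient and 416 and 259 RPKM in the deficient tumors, and Rpl22l1 was at 586, 330.5, 1075 and 169 RPKM and 529 and 154 RPKM. The ratio of Rpl22l1 to Rpl22 was 1.58, 1.19, 1.25 and 0.269 in sufficient tumors 1 to 4 and 1.27 and 0.592 in deficient tumors 1 and 2, a 5.87-fold range. The ratio was lowest in sufficient tumor 4 and deficient tumor 2, thymic tumors of either genotype, while the other tumors, the other 2 thymic ones included, lay between 1.19 and 1.58. Neither gene passed the genotype test, with log2 fold changes of -0.56 (SE 0.46) and -0.60 (SE 0.73) and adjusted p of 0.893 and 0.898 by limma, and that of Rpl22l1 was 0.29 without deficient tumor 2.

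**Figure D4:**
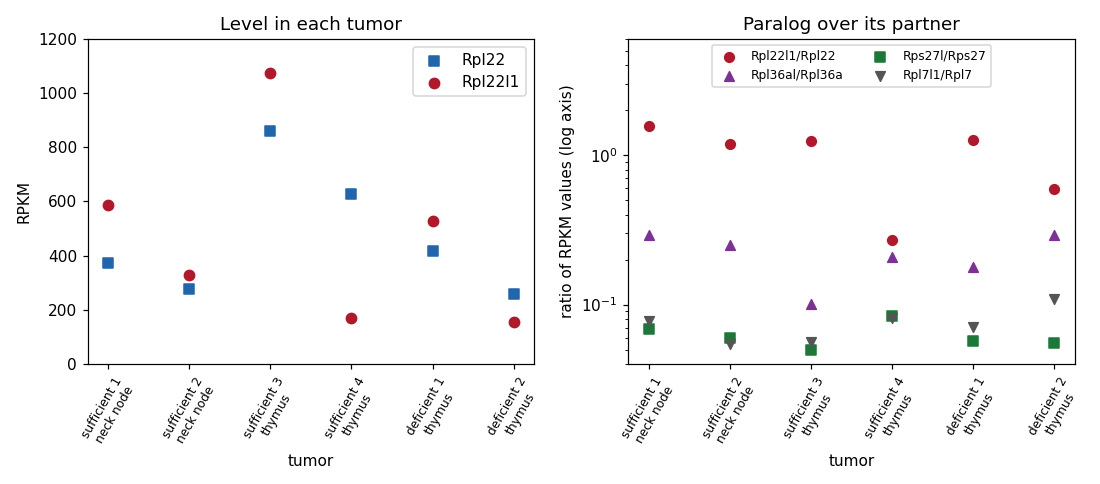
Left, Rpl22 and Rpl22l1 in RPKM in each of the 6 tumors; right, the ratio of 4 paralogs to their partners on a log axis, with 1 point per tumor. The ratio of Rpl22l1 to Rpl22 was 0.269 in sufficient tumor 4 and 0.592 in deficient tumor 2 and lay between 1.19 and 1.58 in the other 4 tumors.

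Ratios of the other pairs were steadier. Rpl36al to Rpl36a, near-identical proteins of the tRNA exit site, was 0.294, 0.252, 0.101 and 0.207 in sufficient tumors 1 to 4 and 0.180 and 0.294 in the deficient tumors, a 2.93-fold range set by sufficient tumor 3. Rpl36al itself was at 172, 133, 159 and 159.7 RPKM and 139 and 132 RPKM, so the range of the ratio came from Rpl36a. Reads of so similar a pair may be hard to place. Rps27l, a p53-responsive paralog, to Rps27 ran from 0.0499 to 0.0845, and Rpl7l1, which acts in ribosome assembly, to Rpl7 ran from 0.0549 to 0.109. The gene lengths used for these RPKM values are not given in the sources used here, so a ratio between genes is compared only from tumor to tumor.

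The 4 members that failed the filter were near or at 0 in every tumor. Rpl10l and Rpl39l, paralogs known from the testis, were listed at 0 in all 6 tumors and at 0 to 0.0831 RPKM, and Rpl3l, the paralog of striated muscle, at 0 to 0.117 RPKM. Rps4y2 was at 0.0945 to 0.437 RPKM. The widely expressed genes of the same names, Rpl10, Rpl39, Rpl3 and Rps4x, were at 308 RPKM or more in every tumor.

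The most abundant members followed the order of the family to unequal degrees. The highest by mean RPKM included Rpl32, Rplp1, Rps15, Rpl4, Rpl8, Rps27, Rps3a, Rplp0 and Rps24, an order that holds only for the lengths the authors used. Rpl32, a large subunit protein often used as a reference gene, was at 5758, 4907, 8794 and 5646 RPKM in the sufficient (6276 ± 1721, mean ± SD, n = 4) and 5424 and 4918 RPKM in the deficient tumors (5171 ± 358, SD, n = 2). Rplp1, with Rplp2 a protein of the stalk, was at 5704, 5582, 8614 and 5785 RPKM and 5454 and 3648 RPKM. Rplp0, the base of that stalk, was at 3589, 2726, 3472 and 4173 RPKM and 3001 and 2440.4 RPKM. The 3 stalk genes differed in which tumor was highest: sufficient tumor 3 for Rplp1, sufficient tumor 4 for Rplp0 and deficient tumor 1 for Rplp2.

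Rps15, Rps27 and Rps24 of the small subunit were at 7812, 6498 and 6021 RPKM in sufficient tumor 3, the highest tumor for each, and at 2740.5, 2735 and 2112 RPKM in deficient tumor 2. That was the lowest tumor for Rps15, while Rps27 was lowest in sufficient tumor 2 (2561 RPKM) and Rps24, mutated in a share of Diamond-Blackfan anemia, in sufficient tumor 1 (2009.9 RPKM). Rps3a was highest in sufficient tumor 1 (4071 RPKM) and lowest in deficient tumor 1 (2529 RPKM). Rpl4, a large subunit protein, was at 3911, 4238, 6007 and 3738 RPKM and 4286 and 3369 RPKM, and Rpl8 was at 4076, 3289, 4391 and 4526 RPKM and 3542 and 2939.6 RPKM. For Rpl4 the 5 tumors other than sufficient tumor 3 spanned a narrow range, and for Rpl8 sufficient tumors 3 and 4 were close.

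Members known for roles in p53 surveillance were, like the family, highest in sufficient tumor 3. Rpl5, which with Rpl11 carries 5S rRNA and holds Mdm2, was at 594, 581, 1059.8 and 770.0 RPKM in the sufficient tumors and 662 and 459 RPKM in the deficient ones, for a log2 fold change of -0.40 (SE 0.32). Rpl11 was at 605, 469.6, 1314 and 880.2 RPKM and 616 and 452 RPKM (-0.52, SE 0.41). For both, sufficient tumors 3 and 4 were the highest and deficient tumor 2 the lowest, and deficient tumor 1 lay above both neck node tumors. Rpl23, another Mdm2 binder, was at 1012, 1046, 1631 and 967 RPKM and 1026 and 769 RPKM, Rps20 was at 457, 475, 568 and 489 RPKM and 476 and 313 RPKM, and Rps3, which also takes part in DNA repair and NF-κB complexes, was at 848, 699, 1858 and 636 RPKM and 991 and 645 RPKM. In these 3 genes sufficient tumor 3 was highest, and deficient tumor 2 was lowest for Rpl23 and Rps20 and sufficient tumor 4 for Rps3. Of the genes they act on, Mdm2 was at 9.47, 10.5, 7.76 and 9.01 RPKM and 8.32 and 11.3 RPKM, Trp53 at 46.6, 47.6, 25.6 and 40.2 RPKM and 42.3 and 34.8 RPKM, and Cdkn1a, the p53 target p21, at 2.60, 3.08, 0.548 and 0.976 RPKM and 2.58 and 2.28 RPKM. All 3 had their lowest value in sufficient tumor 3, as did 39.7% of all genes tested, and none passed the genotype test.

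Other members with known roles followed the same order. Rps19, the gene most often mutated in Diamond-Blackfan anemia, was at 302, 270.0, 399 and 199 RPKM and 283 and 196 RPKM. Rps6, the target of the S6 kinases, was at 1062, 906, 1501 and 1303 RPKM and 982 and 750.3 RPKM, and Rpsa, also known as a laminin receptor, was at 2202, 1728, 2834 and 2285 RPKM and 1898 and 1282 RPKM. Sufficient tumor 3 was highest and deficient tumor 2 lowest for each of these genes. Rps27a, made as a fusion with ubiquitin, was at 888, 689, 1756 and 1039 RPKM and 838 and 544 RPKM, and Rpl38, needed for translation of Hox messages, was at 856, 848, 1609 and 1121 RPKM and 970.5 and 736 RPKM, with the same tumors at both ends. Log2 fold changes of these 5 genes ran from -0.60 (Rps27a) to -0.27 (Rps19).

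Processed pseudogenes, copies of ribosomal protein messages inserted elsewhere in the genome, bear on how reads of these genes were counted. By name the table holds 219 of them (23 typed there as protein_coding), 136 passed the filter, and 54 members have at least 1, with 23 named for Rpl31, 21 for Rps12, 14 for Rpl21 and 13 for Rps19. Their sum was 53228, 47265, 73504 and 50785 RPKM in sufficient tumors 1 to 4 and 52224 and 39776 RPKM in deficient tumors 1 and 2, in the same order at both ends as the family. Sufficient tumor 3 was highest for 76.5% of the 136, against 9.37% of all genes tested, and 105 of the 136 had the same highest tumor as their parent. Because that tumor was also highest for 84.3% of the members, such matches are frequent even without a link of a copy to its own parent. The typical pseudogene was low, with a median ratio to its parent of 0.00828.

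A few stood far above their parents. Rps6-ps4 (chr2:75191073-75191822) had a mean of 15514 RPKM against 1084 RPKM for Rps6, a ratio of 14.3. Rpl10a-ps1 (chr1:64993951-64994604) and Rpl28-ps1 (chr1:128038569-128038982) had means of 10528 and 11716 RPKM, ratios of 16.8 and 16.5. Rps13-ps2, Rpl38-ps2, Rps16-ps2 and Rpl34-ps1 were the other 4 above their parents, at ratios of 3.77, 3.44, 2.41 and 1.57. The levels of Rps6, Rpl10a, Rpl28, Rps13, Rpl38, Rps16 and Rpl34 are uncertain for this reason, since reads of near-identical copies are hard to place. How such reads were handled is not given in the sources used here, and the unknown lengths enter the ratios too. None of these 7 parents was among the 16 members above 2-fold in sufficient tumor 3. Rps6-ps4 nevertheless gave the same order of tumors at both ends as Rps6, with 14811, 13647, 21756 and 18277 RPKM in the sufficient and 13987 and 10609.6 RPKM in the deficient tumors.

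**Figure D5:**
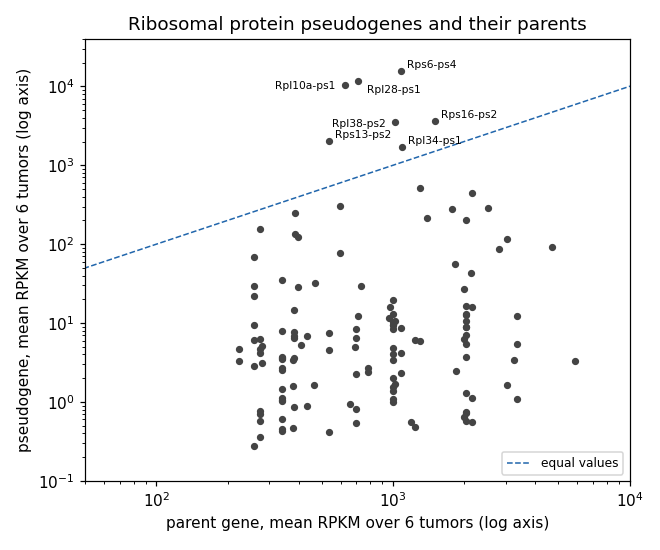
Mean RPKM over the 6 tumors of each of the 136 tested ribosomal protein pseudogenes against that of its parent gene, both on log axes, with the dashed line at equal values. The 7 named pseudogenes lie above the line and the others below it, with a median ratio of 0.00828.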

How the data were processed

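RNA of 6 Eμ-Myc tumors was made into TruSeq v2 libraries, which do not mark strand, and read on an Illumina HiSeq. According to the submitters' processing notes and the study's methods, reads were aligned with STAR 2.3.0 to GRCm38 with Ensembl release 71 junctions and counted per gene with HTSeq 0.5.4p3. The submitters' notes also name DESeq 1.12.1, whereas the methods of the authors name DESeq in another version. The deposited values are RPKM made by the authors from those counts. The gene lengths behind them are not given in the sources used here: with the annotated exon length (17946 bases), the Xist value of deficient tumor 1 would exceed all reads of its own library, so a level is compared between tumors and not between genes. Low values recurred at more than 1 step between tumors, so no depth or counting error is given, although deeper tumors have less of it.

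Values were tested as log2(RPKM + 1) over genes that reached 0.5 RPKM in 2 or more tumors, with limma 3.58.1 in R 4.3.3 (lmFit, eBayes with trend) and Benjamini-Hochberg adjustment over all genes tested. Fold changes on this scale understate those of low genes. The exact permutation test (two-sided, 15 splits of the 6 tumors) used SciPy 1.17.1. The test was checked on 20 simulated tables of 12751 genes. The labels do not say that each tumor came from a separate mouse, so p-values measure the spread between these tumors. The members and lists were chosen with earlier results of these data known. Named genes were members past the threshold (0), the 10 highest by mean RPKM, paralog pairs, members with textbook roles, the 5 largest and 5 smallest log2 fold changes, the 5 most variable after centring, and members failing the filter, and some of these are not reported here. Gene positions are from GENCODE M21 on GRCm38. Other pseudocounts, filters, scalings, samples, covariates and limma settings were tried.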

Additional observations from a re-analysis of the deposited data

Results flagged for a closer look

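Among the 4 sufficient tumors, 51 values were examined for a tumor standing far from the rest by Dixon's ratio, the gap to the nearest tumor over the whole range. Chance alone takes about 1 in 20 past the 95% critical value, and 5 passed it. For Rplp1 the ratio was 0.917, for Rpl23 it was 0.850 and for the median log2 value of the small subunit genes it was 0.832, in each case with sufficient tumor 3 high. For Rplp2 it was 0.833 with sufficient tumor 4 low. For Rpl39l it was 1.00, because sufficient tumor 3 was the only one of the 4 above 0, at 0.0374 RPKM.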

How the results depend on the processing

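No ribosomal protein gene passed the adjusted threshold by genotype or by site in any fit run. The counts of members below and above without overlap became 4 and 1 after centring on these genes (0.173% and 4.97% of all genes), and 46 members lay below among thymic tumors only (10.5% of all genes). Leaving out each tumor in turn gave 7 to 65 members below, 0 to 1 above and a median log2 fold change of -0.53 to -0.12. Genes near 0 changed sign, as did Rpl22 and Rpl22l1. With median-ratio scaling Rpl12 was at -0.12, Rplp2 at -0.048, Rps13 at -0.10, Rps19bp1 at -0.13 and Rps29 at -0.047, and with quantile normalization Rps19bp1 was at -0.065. Among thymic tumors only, and so by construction with site as a covariate, Rpl12 was at -0.039 and Rps19bp1 at -0.060. Leave-one-out ranges were -0.12 to 0.24 for Rpl12, -0.028 to 0.20 for Rplp2, -0.12 to 0.22 for Rps13, -0.047 to 0.16 for Rps19bp1 and -1.49 to 0.29 for Rpl22l1. The cause of these changes was not tested, other than fewer tumors or the centring itself.

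With the replicate number as a block the median was -0.14 (65 of 83 below 0) and no call changed, while Rpl22 was at 0.034, Rplp2 at -0.017 and Rps13 at -0.026. Sufficient tumors 3 and 4 have no deficient tumor of the same number, so they add nothing to the genotype difference in that fit. It sets deficient tumors 1 and 2, both thymic, against sufficient tumors 1 and 2, both neck nodes. The replicate numbers are not shown to pair the tumors: deviations of same-numbered tumors correlated at 0.02 and 0.21 over genes, with 2 pairs only. Chosen after seeing the data, leaving out sufficient tumor 3 together with median-ratio scaling gave a median of -0.27 and put Rps19bp1 at -0.12. The family's share of all RPKM rose when only protein_coding genes formed the total, to 23.5%, 20.4%, 30.5% and 23.0% in sufficient tumors 1 to 4 and 23.3% and 18.6% in the deficient tumors, and was 15.6% in deficient tumor 1 without Xist. The share of starts with a pyrimidine run was 60.9% within 10 bases. Counting precision cannot be stated without depths.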
